A study of Arabidopsis thaliana with 20 samples.

Results

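The breakdown of branched-chain amino acids and of lysine in rosette leaves was followed through 10 genes, chosen as named enzymes and subunits of the 2 routes and found by their locus in the count files. All 10 were present among the 37336 loci counted, and all 10 passed the filter on low counts that left 14503 loci for testing. They were BCAT2 (AT1G10070), the branched-chain keto acid dehydrogenase subunits E1A1 (AT1G21400), DIN4 (AT3G13450) and BCE2 (AT3G06850), IVD (AT3G45300), MCCA (AT1G03090), MCCB (AT4G34030), LKR/SDH (AT4G33150), ETFQO (AT2G43400) and D2HGDH (AT4G36400).

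Leucine, isoleucine and valine are broken down in mitochondria. A transaminase first removes the amino group, the branched-chain keto acid dehydrogenase complex then decarboxylates the keto acid, and acyl-CoA dehydrogenases such as IVD pass electrons through the electron transfer flavoprotein (ETF) to its oxidoreductase ETFQO and so to ubiquinone. Lysine enters through the bifunctional enzyme LKR/SDH, and D2HGDH, which oxidises D-2-hydroxyglutarate, feeds electrons into the same ETF pathway. Leaves draw on these routes for respiration when sugars run short, in prolonged darkness and in senescence.

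Total RNA of rosette leaves was sequenced as 3′ tags, from reads primed at the poly(A) tail, so a count is a tag near a transcript's end and does not grow with transcript length. The 4 groups were the snrk2.4/snrk2.10 double mutant at 45 days after sowing (DAS), Col-0 wild type (WT) at 45 DAS, the double mutant at 25 DAS and WT at 25 DAS, each with 5 libraries, from plants grown in long days. The mutant is named for the genes of 2 SnRK2 protein kinases, and the labels name neither its alleles nor where they lie in the genes, nor whether each library came from separate plants, so p-values measure only the spread between these libraries. The study asked how the kinases bear on developmental leaf senescence.

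Libraries held between 615317 and 2343212 counts. Levels are given as CPM, counts set relative to the library total after scaling by TMM factors, which lay between 1.13 and 1.32 at 45 DAS, against 0.748 to 0.831 at 25 DAS, and 3 counts corresponded to 1.28 to 3.97 CPM. SNRK2.4 averaged 2.67 ± 1.72 CPM in the mutant and 80.0 ± 5.39 CPM in WT at 45 DAS, and 4.92 ± 2.48 CPM in the mutant and 37.3 ± 8.63 CPM in WT at 25 DAS (SD, n = 5 each). SNRK2.10 averaged 31.4 ± 4.85 CPM in the mutant and 75.1 ± 5.75 CPM in WT at 45 DAS, and its level at 25 DAS was 47.0 ± 6.01 CPM in the mutant and 62.9 ± 11.3 CPM in WT, where the difference did not pass the test (adjusted p = 0.106 with edgeR's quasi-likelihood test, Benjamini-Hochberg). SNRK2.10 tags thus remained in the mutant at both ages. A 3′ tag can lie outside the part of a gene that an allele disrupts. The summed level of 3 mesophyll markers (LHCB1.3, RBCS1A, CA1) ranged from 1901 to 3324 CPM in the mutant and from 577 to 3673 CPM in WT at 45 DAS, and from 55520 to 64683 CPM in the mutant and 56932 to 60560 CPM in WT at 25 DAS. At 45 DAS the median of this sum was 1931 CPM in the mutant and 952 CPM in WT, so the WT median lay below every mutant library. None of the 3 markers was called between genotypes at 45 DAS by edgeR. Companion cell markers (SUC2, AHA3) summed to 226 to 303 CPM in the mutant and 261 to 351 CPM in WT at 45 DAS, against 237 to 298 CPM in the mutant and 239 to 316 CPM in WT at 25 DAS. The flower genes AG, PI and AP3 together had 18 to 32 counts a group. The sum of 3 guard cell markers (MYB60, KAT1, FAMA) was 39.3 to 43.3 CPM in the mutant and 35.3 to 59.2 CPM in WT at 45 DAS. This sum joins markers that differed in direction. KAT1 averaged 12.98 CPM in the mutant and 25.96 CPM in WT at 45 DAS. The means of MYB60 and FAMA were higher in the mutant there. By edgeR 1 of the 3 was called lower in the mutant at 45 DAS and none higher. With age in WT 1 of the 3 rose and 2 fell. At 25 DAS the guard cell sum was higher in the mutant without overlap, with 73.4 to 77.1 CPM against 47.0 to 58.4 CPM in WT. The sum of 2 epidermal markers was 13.2 to 15.3 CPM in the mutant and 3.68 to 11.4 CPM in WT at 45 DAS, without overlap, against 80.4 to 132 CPM in the mutant and 52.9 to 91.1 CPM in WT at 25 DAS. In bulk leaves, fewer cells of a type and less RNA per cell cannot be told apart, and the part of the marker changes in the results that follow was not tested.

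The 250 bases upstream of 4 genes show the DNA beside which the strongest patterns were measured, the rises of BCAT2, E1A1 and LKR/SDH with age and the lower MCCA level in young mutant leaves. The windows were read from RefSeq's TAIR10.1 genome, 5′ to 3′ on each gene's own strand, and end 1 base before the annotated start. They are 1:3287837-3288086 (plus strand) for BCAT2, 1:7492963-7493212 (plus strand) for E1A1, 4:15991634-15991883 (minus strand) for LKR/SDH and 1:739294-739543 (plus strand) for MCCA, and no other annotated locus lies in them. Capitals mark matches, on either strand, to any of 4 motifs: CACGTG (the G-box), ACTCAT (a site of S1-group bZIP factors), TATCCA (known from sugar-repressed rice promoters) and TTGACC or TTGACT (W-box cores bound by WRKY factors).
BCAT2: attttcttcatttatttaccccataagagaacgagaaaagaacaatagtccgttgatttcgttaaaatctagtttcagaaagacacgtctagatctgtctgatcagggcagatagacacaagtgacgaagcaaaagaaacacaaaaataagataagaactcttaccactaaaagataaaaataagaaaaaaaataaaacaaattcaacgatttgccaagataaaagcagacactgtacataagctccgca
E1A1: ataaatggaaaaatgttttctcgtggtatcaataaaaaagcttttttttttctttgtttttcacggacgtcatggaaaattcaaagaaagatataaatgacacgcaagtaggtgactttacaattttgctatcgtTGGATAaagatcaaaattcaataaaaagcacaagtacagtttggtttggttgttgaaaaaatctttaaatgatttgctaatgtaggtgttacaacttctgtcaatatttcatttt
LKR/SDH: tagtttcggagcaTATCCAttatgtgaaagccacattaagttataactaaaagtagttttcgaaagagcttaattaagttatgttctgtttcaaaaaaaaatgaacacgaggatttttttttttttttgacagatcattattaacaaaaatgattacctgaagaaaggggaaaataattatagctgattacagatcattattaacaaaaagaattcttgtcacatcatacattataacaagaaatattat
MCCA: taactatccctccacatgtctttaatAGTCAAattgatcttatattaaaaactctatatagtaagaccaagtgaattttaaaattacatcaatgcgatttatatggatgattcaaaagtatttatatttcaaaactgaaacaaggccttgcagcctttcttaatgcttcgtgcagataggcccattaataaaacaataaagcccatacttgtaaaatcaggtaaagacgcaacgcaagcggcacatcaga
Neither CACGTG nor ACTCAT occurred in these windows of any of the 10 genes, while 6.49% and 12.3% of the windows of all 27443 protein-coding genes held them. TATCCA was found in E1A1 (bases 115 to 110 before the start, on the reverse strand), LKR/SDH (237 to 232) and D2HGDH (29 to 24), 3 of 10, against 13.6% of all windows. A W-box core was found in IVD, MCCA and MCCB, 3 of 10, against 28.4% of all windows. BCAT2, with the steepest rise of the 10 genes, held none of the 4 motifs. TATCCA thus lay upstream of 2 genes that rose with age and of D2HGDH, which had no called change, and the W-box core upstream of IVD, which rose in both genotypes, of MCCA, which fell in both, and of MCCB, which fell in WT.

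The genes of the route did not move together with age. In the mutant, 4 of the 10 genes rose between 25 and 45 DAS and 2 fell, and in WT 4 rose and 4 fell (edgeR's quasi-likelihood test, adjusted p under 0.05). Among all tested genes 70% passed in the mutant (35.4% higher, 34.6% lower) and 70.6% in WT (36.1% higher, 34.5% lower), so the share of these genes that changed was close to the background. BCAT2, E1A1, IVD and LKR/SDH rose in both genotypes, and DIN4 and MCCA fell in both. The median log2 fold change with age over the 10 genes was 0.18 in the mutant and 0.06 in WT, beside 0.06 and 0.07 over all tested genes. By size, BCAT2 was the 18th highest of 14503 in the mutant and the 145th in WT by log2 fold change.

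**Figure D1:**
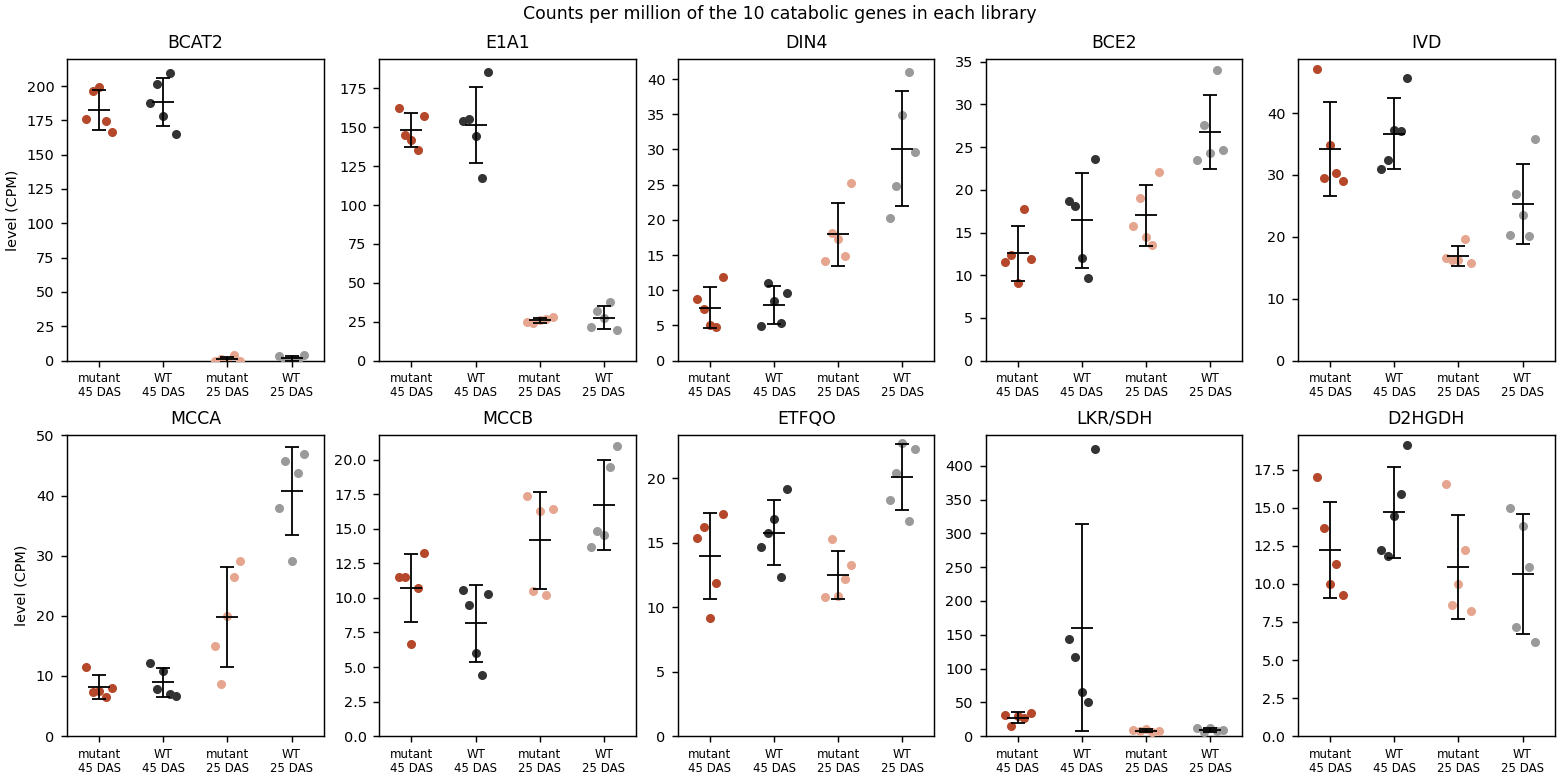
Level of each of the 10 genes in CPM (vertical axis, from 0, scaled per panel) in every library of the 4 groups (horizontal axis); points are libraries, bars the mean and SD over 5 libraries. BCAT2 and E1A1 are high at 45 DAS in both genotypes, MCCA is low at 45 DAS, and LKR/SDH reaches 425 CPM in 1 WT library at 45 DAS.

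BCAT2, a branched-chain aminotransferase of the type that catalyses the first step, had the highest mean level of the 10 genes at 45 DAS and lay near the detection limit at 25 DAS. At 45 DAS its level was 176, 196, 199, 175 and 167 CPM in the mutant libraries, against 187, 201, 178, 209 and 165 CPM in the WT libraries. At 25 DAS it was 0, 0.955, 0, 4.07 and 0 CPM in the mutant, against 3.26, 0, 0.81, 0.695 and 3.70 CPM in WT. The age groups did not overlap in either genotype, and the genotypes overlapped at both ages. In summed counts, 1440 tags at 45 DAS stood against 7 at 25 DAS in the mutant, a 169-fold ratio after scaling (95% exact counting interval 81.8 to 421), and 1094 against 10 in WT, a 128-fold ratio (69.6 to 269). The fitted log2 fold change with age was 7.28 (SE 0.40, adjusted p = 8.12e-13) in the mutant and 6.90 (SE 0.39, adjusted p = 7.61e-13) in WT by edgeR's quasi-likelihood test. Between genotypes the log2 fold change was -0.04 (SE 0.23, adjusted p = 0.953) at 45 DAS and -0.41 (SE 0.80, adjusted p = 0.869) at 25 DAS, where 7 and 10 counts over the groups leave little precision. The 3′ end of BCAT2 overlaps AT1G10090 on the opposite strand by 161 bases, and the sources do not state whether counting used strand. That neighbour had 683 counts in all, against 2551 for BCAT2, and its own log2 fold change with age was 1.66 in the mutant and 0.97 in WT.

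BCAT2 took over the larger part of the tags of 6 aminotransferase genes, a sum that leaves out BCAT4, known from glucosinolate synthesis. Among BCAT1, BCAT2, BCAT3, BCAT5, BCAT6 and BCAT7, it held 57.1, 63.1, 62.7, 59.0 and 63.0% of the counts in mutant libraries at 45 DAS and 56.7, 67.6, 64.3, 63.7 and 69.3% in WT libraries. At 25 DAS the highest share in any library was 2.02% in the mutant and 1.83% in WT. The mean difference with age was 60.5 percentage points in the mutant and 63.5 in WT, and each exact two-sided permutation test gave p = 0.00794, the smallest that 5 against 5 libraries allow (adjusted p = 0.0212 over 16 tests on shares and ratios). BCAT3, a plastid aminotransferase known for a part in branched-chain synthesis, fell with age by 1.17 on the log2 scale in the mutant (adjusted p = 3.52e-09) and by 1.45 in WT (adjusted p = 1.47e-10, edgeR). BCAT5, also plastid, had log2 fold changes with age of -0.18 in the mutant (adjusted p = 0.300) and -0.52 in WT (adjusted p = 0.00648), and both turned positive, 0.51 and 0.14, when libraries were scaled by their totals alone. The annotated BCAT5 overlaps LINC4 on the same strand by 4715 bases, and LINC4 had 0 counts in all against 1078 for BCAT5. Whether the BCAT5 counts, and with them the BCAT2 share, include tags of LINC4 was not tested. BCAT1, a mitochondrial form, had -0.55 in the mutant (adjusted p = 0.0823) and 0.27 in WT (adjusted p = 0.353). BCAT6 had 2 counts in the mutant and 0 in WT at 45 DAS, against 23 and 29 at 25 DAS, and BCAT7 had none. The share at 45 DAS was 3.35 percentage points lower in the mutant than in WT, a difference that did not pass (adjusted p = 0.264, exact permutation).

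E1A1, an E1 alpha subunit of the dehydrogenase complex, rose about as strongly in both genotypes. Its level at 45 DAS was 162, 145, 142, 135 and 157 CPM in mutant libraries, against 154, 155, 144, 117 and 186 CPM in WT libraries. In young leaves it was 24.9, 23.9, 26.3, 26.5 and 27.8 CPM in the mutant, against 21.5, 32.0, 27.6, 37.5 and 19.8 CPM in WT. Every library at 45 DAS lay above every library at 25 DAS, and mutant and WT libraries were interleaved at each age. The log2 fold change with age was 2.51 (SE 0.15, adjusted p = 1.23e-13) in the mutant and 2.43 (SE 0.15, adjusted p = 1.8e-13) in WT by edgeR's quasi-likelihood test. Between genotypes it was -0.03 (SE 0.13) at 45 DAS and -0.11 (SE 0.16) at 25 DAS, neither past the threshold. E1A1 already held most E1 alpha tags in young leaves, and its share of the counts of E1A1 and E1A2 averaged 92.9 ± 2.1% at 45 DAS and 79.1 ± 4.70% at 25 DAS in the mutant (SD, n = 5; adjusted p = 0.0212, exact permutation) and 92.6 ± 2.67% and 86.5 ± 5.20% in WT (adjusted p = 0.113). The second gene, E1A2, rose by 0.70 on the log2 scale in the mutant and 1.58 in WT, but its 3′ end overlaps AT5G09290 on the opposite strand. That neighbour had 282 counts against 243 for E1A2 and log2 fold changes with age of 4.73 in the mutant and 4.99 in WT, so the rise of E1A2 and the shares that use it are uncertain. The mutant call of E1A2 (adjusted p = 0.041) was also lost in 8 of 18 alternatives, among them 7 of the 10 fits without 1 library (adjusted p up to 0.104).

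DIN4, an E1 beta subunit that is named for its induction in darkness, fell while its partner subunit rose. It had 8.77, 7.26, 4.98, 4.75 and 11.9 CPM in mutant libraries at 45 DAS, against 4.89, 11, 8.43, 5.29 and 9.58 CPM in WT libraries. In young leaves it had 14.1, 18.1, 17.2, 14.9 and 25.3 CPM in the mutant, against 20.2, 24.8, 34.8, 41.0 and 29.6 CPM in WT. Old and young libraries did not overlap in either genotype, and only 1 young mutant library, at 25.3 CPM, reached into the range of the young WT libraries. With age the log2 fold change was -1.31 (SE 0.27, adjusted p = 0.000128) in the mutant and -1.91 (SE 0.26, adjusted p = 4.54e-07) in WT (edgeR). The other E1 beta gene, BCDH beta1, rose by 0.69 in the mutant (adjusted p = 0.0109) and 0.64 in WT (adjusted p = 0.0157). Both calls were lost on thinned counts, and 1 each without replicate 4 of the old mutant leaves (0.56, adjusted p = 0.0543) and without replicate 1 of the old WT leaves (0.52, adjusted p = 0.0677). DIN4's share of the E1 beta counts was 37.2, 43.6, 33.3, 21.6 and 45.0% in mutant libraries at 45 DAS and 60.7, 73.1, 73.1, 71.0 and 69.0% at 25 DAS. In WT it was 23.1, 41.2, 35.0, 31.6 and 39.4% at 45 DAS and 68.9, 72.6, 76.8, 78.7 and 82.8% at 25 DAS. In each genotype the gene with the smaller share in young leaves thus held the larger share in old leaves, without overlap between libraries (adjusted p = 0.0212 in both, exact permutation). The counts behind these shares are small, between 6 and 59 for DIN4 in a library, and both E1 beta genes overlap a gene on the opposite strand at the 3′ end, DIN4 the TATA-binding protein gene TBP1 by 27 bases and BCDH beta1 TBP2 by 278 bases. TBP1 had log2 fold changes with age of 0.46 in the mutant and 0.35 in WT, opposite in sign to DIN4. TBP2 had 710 counts in all against 304 for BCDH beta1, and log2 fold changes with age of 0.165 in the mutant and 0.0083 in WT. Whether the BCDH beta1 counts, and with them the DIN4 share, include tags of TBP2 was not tested.

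BCE2, the E2 acyltransferase core of the complex, ranged from 9.14 to 17.8 CPM with a median of 11.9 CPM in the mutant and from 9.71 to 23.6 CPM with a median of 18.1 CPM in WT at 45 DAS. Its range at 25 DAS was 13.6 to 22.1 CPM in the mutant and 23.5 to 34.1 CPM in WT. Old libraries overlapped young ones in both genotypes, and the young genotypes did not overlap each other. The log2 fold change with age was -0.42 (SE 0.23, adjusted p = 0.101) in the mutant and -0.68 (SE 0.21, adjusted p = 0.00626) in WT. Without mutant replicate 4 at 45 DAS the mutant value was -0.58 (adjusted p = 0.0356). The difference between these 2 changes, the interaction of genotype and age, did not pass (0.26, SE 0.31, adjusted p = 0.738). Library totals in place of TMM ended the WT call (log2 fold change -0.03) and turned the mutant value to 0.26, on a scale where the median of all tested genes itself moved to 0.75 in the mutant and 0.72 in WT.

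**Figure D2:**
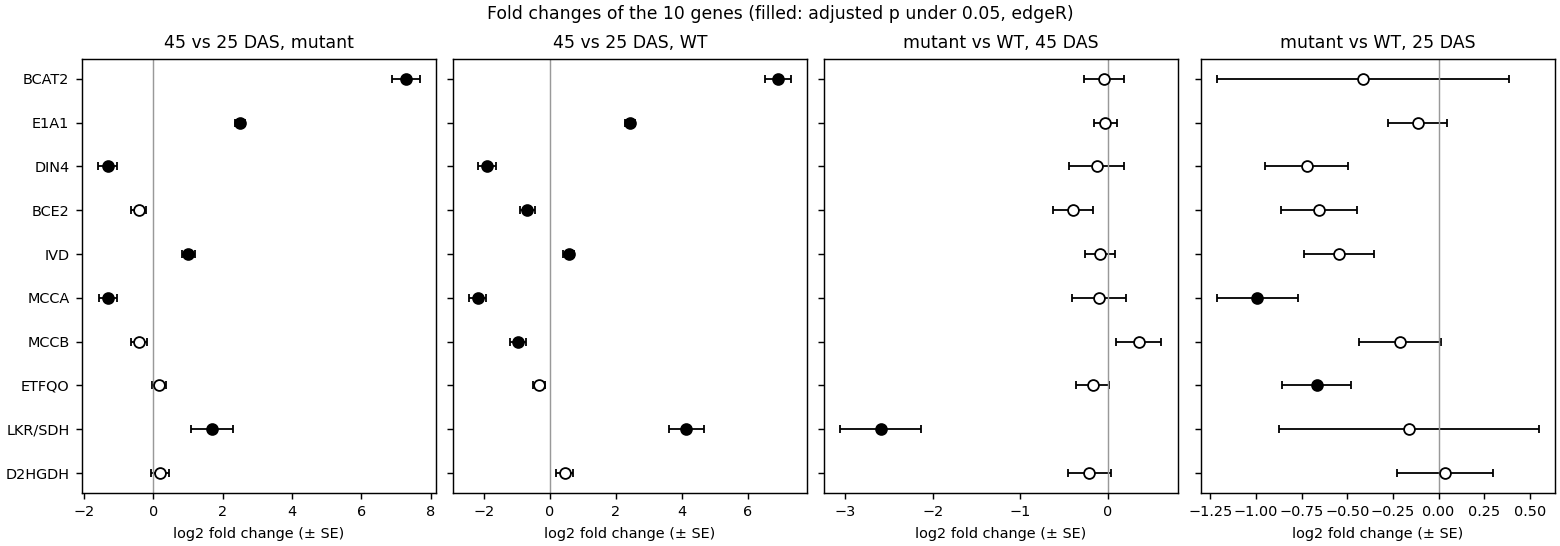
Log2 fold change (horizontal axis, with SE bars) of the 10 genes (vertical axis) in 4 comparisons, from left to right 45 against 25 DAS in the mutant and in WT, and mutant against WT at 45 and at 25 DAS; filled points passed an adjusted p of 0.05 in edgeR's quasi-likelihood test. Axis ranges differ between panels. Changes with age reach 7.28, and the genotype panels hold 3 filled points, LKR/SDH at 45 DAS and MCCA and ETFQO at 25 DAS.

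IVD, isovaleryl-CoA dehydrogenase of the leucine branch, rose moderately with age. Mutant libraries at 45 DAS had 47.1, 29.5, 34.9, 30.3 and 29.1 CPM, against 31.0, 32.3, 37.3, 37.1 and 45.7 CPM in WT libraries. Young mutant libraries had 16.6, 16.2, 16.3, 19.7 and 15.8 CPM, against 20.2, 27.0, 23.5, 20.2 and 35.8 CPM in young WT libraries. In the mutant the ages did not overlap, in WT 1 young library, at 35.8 CPM, lay within the old ones, and the young mutant libraries all lay below the young WT libraries. The log2 fold change with age was 1.02 (SE 0.18, adjusted p = 2.11e-05) in the mutant and 0.56 (SE 0.17, adjusted p = 0.00581) in WT (edgeR), and their difference did not pass (0.45, SE 0.25, adjusted p = 0.371).

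MCCA and MCCB encode the biotin-carrying and the carboxyltransferase subunit of methylcrotonyl-CoA carboxylase, the enzyme after IVD in leucine breakdown. MCCA had 11.5, 7.26, 7.48, 6.53 and 7.93 CPM in mutant libraries at 45 DAS, against 12.2, 7.89, 10.8, 7.06 and 6.63 CPM in WT libraries. At 25 DAS it had 14.9, 8.59, 19.9, 26.5 and 29.1 CPM in the mutant, against 37.9, 45.7, 29.2, 43.8 and 46.9 CPM in WT. The old groups overlapped, and all 5 young mutant libraries lay below the young WT libraries, the highest mutant library at 29.1 CPM almost touching the lowest WT library at 29.2 CPM. Between ages the WT libraries did not overlap, and in the mutant 1 young library, at 8.59 CPM, lay within the old ones. The log2 fold change with age was -1.30 (SE 0.27, adjusted p = 0.00012) in the mutant and -2.19 (SE 0.26, adjusted p = 3.23e-08) in WT. MCCB had 11.5, 11.5, 6.65, 10.7 and 13.2 CPM in the mutant at 45 DAS, against 10.6, 9.47, 6.02, 4.41 and 10.3 CPM in WT. At 25 DAS it had 17.4, 10.5, 16.3, 10.2 and 16.4 CPM in the mutant, against 13.7, 14.9, 14.6, 19.5 and 21.0 CPM in WT. Only the WT ages were free of overlap, and MCCB changed with age by -0.40 on the log2 scale (SE 0.23, adjusted p = 0.125) in the mutant and -0.97 (SE 0.25, adjusted p = 0.00115) in WT (edgeR). The interaction was 0.56 (SE 0.34, adjusted p = 0.420). The WT call of MCCB was lost on library totals alone, at -0.32 (adjusted p = 0.266), and the mutant value turned to 0.28.

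The 2 subunits did not keep a fixed ratio. The log2 ratio of MCCA to MCCB counts was 0, -0.65, 0.16, -0.69 and -0.69 in mutant libraries at 45 DAS, against 0.20, -0.25, 0.79, 0.63 and -0.61 in WT. At 25 DAS it was -0.22, -0.28, 0.28, 1.35 and 0.81 in the mutant, against 1.44, 1.60, 0.98, 1.16 and 1.14 in WT. In WT the lowest young ratio lay above the highest old ratio, and in the mutant the ages overlapped. The mean changed with age by -1.11 in WT (adjusted p = 0.0212) and by -0.76 in the mutant (adjusted p = 0.114, both exact permutation). At 25 DAS the mean was 0.87 lower in the mutant than in WT, with p = 0.0476 and adjusted p = 0.109 by exact permutation, and without mutant replicate 4 it was 1.11 lower with adjusted p = 0.0363.

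**Figure D3:**
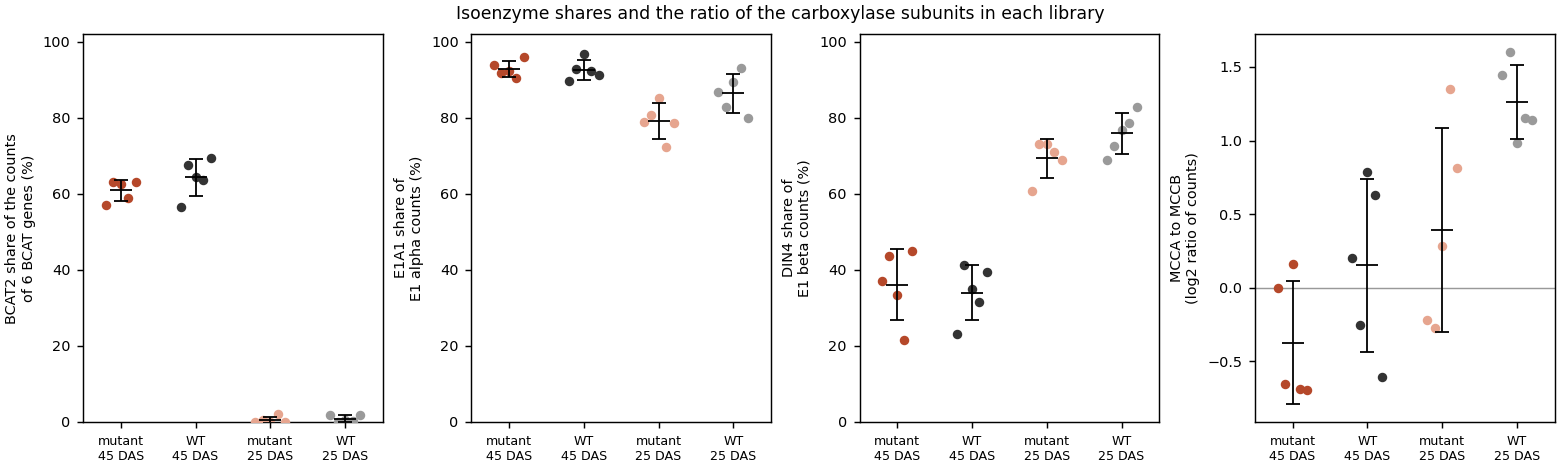
Share of BCAT2 in the counts of 6 BCAT genes (BCAT4 left out), of E1A1 in those of E1A1 and E1A2, and of DIN4 in those of DIN4 and BCDH beta1 (3 left panels, percent, from 0) and log2 ratio of MCCA to MCCB counts (right panel) in every library of the 4 groups; points are libraries, bars the mean and SD over 5 libraries. BCAT2 holds 56.7% or more at 45 DAS and at most 2.02% at 25 DAS, DIN4 holds at most 45.0% at 45 DAS and at least 60.7% at 25 DAS, and the MCCA to MCCB ratio is highest in WT at 25 DAS.

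LKR/SDH, which carries out the first 2 reactions of lysine breakdown, rose with age in both genotypes and reached a lower level in the mutant. Its level at 45 DAS was 31.8, 15.0, 29.9, 26.7 and 34.4 CPM in mutant libraries, against 144, 117, 65.0, 51.2 and 425 CPM in WT libraries. Young leaves had 9.12, 7.64, 10.9, 6.11 and 7.58 CPM in the mutant, against 11.8, 6.06, 12.2, 7.65 and 8.64 CPM in WT. Each old library lay above each young one, the old genotypes did not overlap, and WT replicate 5 stood far above the other old WT libraries. That library also had the lowest TMM factor at 45 DAS (1.13) and the lowest share of counts from plastid-encoded genes (1.36%). Mutant against WT at 45 DAS, the log2 fold change was -2.60 (SE 0.46, adjusted p = 0.00205, edgeR's quasi-likelihood test), lower in 5 of 5 mutant libraries, and it was -0.16 (SE 0.71, adjusted p = 0.954) at 25 DAS. It was -1.83 (adjusted p = 0.000352) without WT replicate 5, and in a fit of the 2 old groups alone it was -2.57 with adjusted p = 0.0511. With age the log2 fold change was 1.70 (SE 0.61, adjusted p = 0.0194) in the mutant and 4.14 (SE 0.54, adjusted p = 2.04e-06) in WT. The difference between these rises, -2.44 (SE 0.87), had adjusted p = 0.148, adjusted p = 0.0112 with DESeq2's Wald test, and a value of -1.65 without WT replicate 5 (adjusted p = 0.101). The annotation gives the locus several transcripts, and shorter ones that encode only the second enzyme share its 3′ end, so the tags do not separate the 2 products. LKR/SDH was the 1 member of 10 called between genotypes at 45 DAS, beside 9.93% of all tested genes called there (5.05% higher, 4.88% lower), and by log2 fold change it was the 46th lowest of 14503.

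ETFQO and D2HGDH, at the electron transfer end of the routes, changed least with age. ETFQO had 15.3, 16.2, 9.14, 11.9 and 17.2 CPM in mutant libraries at 45 DAS, against 14.7, 15.8, 16.9, 12.4 and 19.2 CPM in WT libraries. In young leaves it had 10.8, 15.3, 10.9, 12.2 and 13.3 CPM in the mutant, against 18.3, 20.4, 22.7, 16.7 and 22.2 CPM in WT. Only the young genotypes were free of overlap, all young mutant libraries lying below the young WT libraries. With age the log2 fold change of ETFQO was 0.16 (SE 0.19, adjusted p = 0.464) in the mutant and -0.33 (SE 0.18, adjusted p = 0.126) in WT, where it was -0.47 (adjusted p = 0.0454) without WT replicate 5 at 45 DAS. D2HGDH ranged from 9.25 to 17.0 CPM in the mutant and 11.8 to 19.2 CPM in WT at 45 DAS, and from 8.21 to 16.6 CPM in the mutant and 6.17 to 15.0 CPM in WT at 25 DAS. All 4 groups of D2HGDH overlapped, and its log2 fold change with age was 0.19 (SE 0.25, adjusted p = 0.508) in the mutant and 0.44 (SE 0.26, adjusted p = 0.125) in WT. On library totals alone ETFQO rose in the mutant (0.85, adjusted p = 0.00037), had 0.32 in WT, and D2HGDH rose in both (0.88 in the mutant and 1.09 in WT), again beside medians over all genes of 0.75 and 0.72.

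In young leaves the mutant had lower levels of several of these genes, most of them differences that did not pass the test. MCCA and ETFQO fell and none rose at 25 DAS, 2 of 10 genes, beside 3.16% of all tested genes called (1.38% higher, 1.79% lower). MCCA averaged 19.8 ± 8.36 CPM in the mutant and 40.7 ± 7.32 CPM in WT, and ETFQO 12.5 ± 1.87 CPM in the mutant and 20.1 ± 2.56 CPM in WT (SD, n = 5 each). MCCA had a log2 difference of -0.99 (SE 0.22, adjusted p = 0.0123), lower in 5 of 5 mutant libraries. It was -0.90 (adjusted p = 0.0505) without mutant replicate 1 and -0.95 (adjusted p = 0.201) on counts thinned to 1 depth. ETFQO had -0.67 (SE 0.19, adjusted p = 0.0481, edgeR), also lower in 5 of 5. It lost its call in 13 of 19 alternatives, among them each fit that left out 1 library (adjusted p 0.0508 to 0.129). The 3′ end of ETFQO overlaps FPA on the opposite strand by 46 bases. FPA, with 624 counts in all against 417 for ETFQO, had -0.19 (adjusted p = 0.644) in the same comparison. The neighbour at the 3′ end of MCCA, AT1G03100, had 37 counts in all against 527. DIN4 had -0.72 (SE 0.23, adjusted p = 0.0821), BCE2 -0.66 (SE 0.21, adjusted p = 0.0900) and IVD -0.54 (SE 0.19, adjusted p = 0.124), while E1A1, BCAT2, LKR/SDH and MCCB lay between -0.41 and -0.11 and D2HGDH at 0.04. DIN4 passed at -0.90 (adjusted p = 0.0349) without mutant replicate 5. The main fit uses 1 spread per gene for all 4 groups. Estimated group by group over all tested genes, the spread between libraries beyond counting error was 13.2% in the mutant and 10.7% in WT at 25 DAS. At 45 DAS it was 19.2% in the mutant and 30.1% in WT. DIN4 and BCE2 also passed at 25 DAS in the compared groups alone and with voom, which allowed a variance per group.

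The log2 fold change between genotypes at 25 DAS was below 0 for 9 of the 10 genes, as it was for 45.3% of all tested genes. BCE2, IVD, MCCA and ETFQO had no overlap between young mutant and young WT libraries, 4 of 10 against 7.72% of all tested genes. The median over the 10 genes was -0.48, beside 0.03 over all tested genes. At 45 DAS 9 of 10 were again below 0, against 49.9% of all genes, with a median of -0.12 beside 0.00 over all genes, and LKR/SDH alone had no overlap, against 6.02% of all genes. Apart from LKR/SDH the values at 45 DAS lay between -0.40 for BCE2 and 0.35 for MCCB, with SE of 0.13 to 0.32. None of the 10 passed edgeR's test of genotype by age interaction, beside 3.21% of all tested genes. MCCA had an interaction of 0.89 (SE 0.38, adjusted p = 0.221), and DESeq2's Wald test called 1 of the 10, LKR/SDH. The genotype and age comparisons share libraries, so the lower MCCA level of young mutant leaves and its smaller fall with age in the mutant are 2 readings of the same values. In age comparisons without overlap, 5 of 10 genes in the mutant and 6 in WT stood against 57.1% and 54.8% of all tested genes.

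Other genes of the same routes varied in direction as well. Of 17 further genes listed with branched-chain breakdown, which include the plastid forms BCAT3 and BCAT5, 15 were tested, and with age 6 rose and 4 fell in the mutant, while 7 rose and 4 fell in WT. BCAT3 is among those that fell in both genotypes and BCAT5 among those that fell in WT. ETFA, the alpha subunit of the ETF, rose by 1.15 in the mutant and 1.34 in WT on the log2 scale (adjusted p = 1.69e-06 and 2.46e-07), and ALDH6B2, the methylmalonate semialdehyde dehydrogenase of the valine branch, by 1.65 and 1.13 (adjusted p = 3.63e-09 and 4.02e-07). mtLPD1, a mitochondrial lipoamide dehydrogenase shared with other complexes, fell by 1.95 in the mutant and by 2.20 in WT (adjusted p = 8.86e-14 and 1.64e-14). Between genotypes, ALDH6B2 was lower in the mutant at 25 DAS (-0.90, adjusted p = 0.00512), the 1 gene of the 15 called there. At 45 DAS BCAT3 (0.54, adjusted p = 0.00744) and mtLPD1 (0.43, adjusted p = 0.0212) were higher in the mutant and BCAT1 lower (-1.02, SE 0.27, adjusted p = 0.0169). The mtLPD1 call was lost in 5 of 19 alternatives, among them the fit without mutant replicate 2 (0.40, adjusted p = 0.0621). The BCAT1 call was lost in 6 of 19, in the compared groups alone and without WT replicate 1 (-0.73) or mutant replicate 1, 2, 4 or 5 (adjusted p up to 0.0681). BCAT1 lies beside BCAT2 on chromosome 1, and BCAT2 is 365 kb and 116 annotated genes away from SNRK2.4. Loci so close to a mutated gene can carry alleles of the mutant's parent line, and a difference in BCAT1 by genotype or by such a stretch cannot be told apart here. MCCA and E1A1 lie farther from SNRK2.4 on chromosome 1, at 2911 and 3835 kb. Whether such a stretch reaches them, and bears on the lower MCCA level of young mutant leaves, was not tested.

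Of 5 further genes of lysine breakdown and of the pipecolate pathway that also starts from lysine, 4 were tested and all 4 rose in both genotypes, with a median log2 fold change of 2.59 in the mutant and 2.96 in WT. ALDH7B4, an aldehyde dehydrogenase of the lysine route, averaged 112 ± 18.1 CPM in the mutant and 188 ± 91.4 CPM in WT at 45 DAS, against 15.7 ± 2.55 CPM in the mutant and 14.4 ± 5.13 CPM in WT at 25 DAS (SD, n = 5 each). It rose by 2.83 in the mutant (adjusted p = 6.44e-09) and 3.72 in WT (adjusted p = 8.1e-11, edgeR). At 45 DAS ALDH7B4 (-0.75, SE 0.23, adjusted p = 0.0386) and SARD4 (-0.84, SE 0.26, adjusted p = 0.0392), a reductase of pipecolate synthesis, were lower in the mutant (edgeR). The call of ALDH7B4 was lost in 10 of 19 alternatives, among them 7 fits without 1 library (WT replicates 3 and 5 and each mutant replicate). Its value was -0.37 (adjusted p = 0.171) without WT replicate 5. That of SARD4 was lost in 11 of 19, among them 6 fits without 1 library (replicates 2, 3 and 5 of WT and 3, 4 and 5 of the mutant). Its value was -0.59 (adjusted p = 0.188) without WT replicate 5. FMO1, which hydroxylates pipecolate, had 49 counts in the mutant and 67 in WT at 45 DAS, against 1 in each genotype at 25 DAS, a 40.2-fold ratio in the mutant (95% exact counting interval 6.89 to 1621) and a 78.7-fold ratio in WT (13.6 to 3153). These intervals rest on summed counts and leave out the spread between libraries. At 45 DAS FMO1 ranged from 1.64 to 12.4 CPM in mutant libraries and from 0 to 23.7 CPM in WT libraries. ALD1, the first enzyme of that pathway, was not tested for low counts, with 40 counts in the mutant and 67 in WT at 45 DAS, against 6 in the mutant and 1 in WT at 25 DAS.

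With TMM scaling, synthesis of the same amino acids moved one way. All 12 genes of branched-chain synthesis had lower fitted levels at 45 than at 25 DAS, and 11 fell past the threshold in the mutant and 12 in WT, with a median log2 fold change of -2.01 in the mutant and -1.91 in WT. KARI, ketol-acid reductoisomerase, averaged 59.0 ± 6.64 CPM at 45 DAS and 368 ± 20.2 CPM at 25 DAS in the mutant, and 51.9 ± 7.27 CPM and 343 ± 33.0 CPM in WT (SD, n = 5 each), and its fall held under every alternative. Other falls were small. In the mutant IPMI LSU1 averaged 194 CPM at 45 DAS and 211 CPM at 25 DAS, and IPMS1 44.6 and 59.1 CPM. Library totals alone moved the median of all genes up by more than such falls (to 0.75 in the mutant), and how many synthesis genes stay below 0 there was not counted. All 7 tested genes of lysine synthesis, of 8 listed, fell in both genotypes, with medians of -1.81 in the mutant and -1.61 in WT. DHDPR1, a dihydrodipicolinate reductase, fell furthest among them, with log2 fold changes of -4.77 in the mutant (adjusted p = 1.76e-14) and -4.19 in WT (adjusted p = 2.46e-13). AIP1, the regulatory subunit of acetohydroxyacid synthase, was lower in the mutant at 25 DAS (-0.92, adjusted p = 0.00279), IPMI LSU1, an isopropylmalate isomerase subunit, was higher in the mutant at 45 DAS (0.43, adjusted p = 0.00951), and so was DAPDC2, the last enzyme of lysine synthesis (0.52, adjusted p = 0.0129). The last 2 calls were lost in the compared groups alone and on thinned counts, and that of DAPDC2 also with voom.

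**Figure D4:**
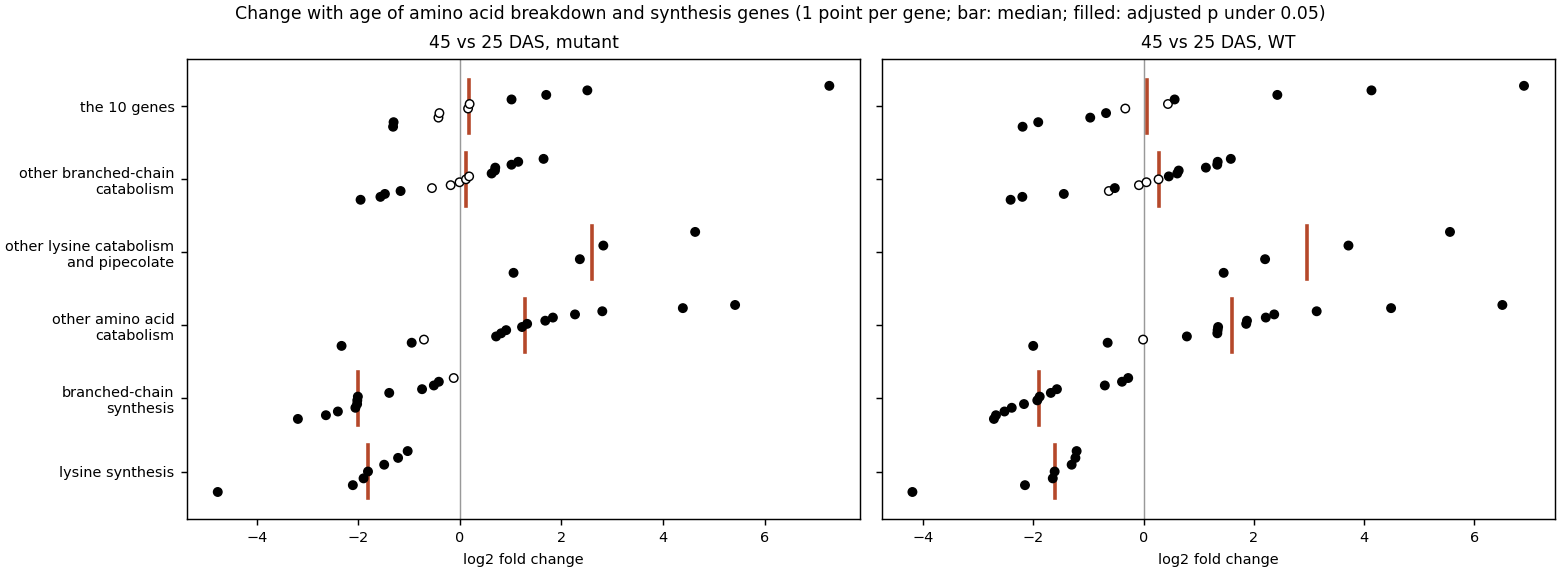
Log2 fold change of 45 against 25 DAS (horizontal axis) in the mutant (left) and WT (right) for the 10 genes and 5 other gene lists (vertical axis); a point is a gene, filled where the adjusted p was under 0.05, and the bar is the list's median. With TMM scaling, the 10 genes and the other branched-chain breakdown genes lie on both sides of 0. Lysine and other amino acid breakdown genes lie mostly above it, and every synthesis gene below it.

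Breakdown genes of other amino acids mostly rose. Of 14 genes of proline, tyrosine, arginine, threonine, methionine and GABA breakdown, 11 rose and 2 fell with age in each genotype, with a median log2 fold change of 1.27 in the mutant and 1.61 in WT, beside 0.18 and 0.06 for the 10 genes. HGO, homogentisate dioxygenase of tyrosine breakdown, rose by 2.81 in the mutant and 2.37 in WT (adjusted p = 1.05e-12 and 6.14e-12). ProDH2, a proline dehydrogenase, had 827 counts in the mutant and 933 in WT at 45 DAS, against 16 in the mutant and 11 in WT at 25 DAS. ARGAH2, an arginase, fell by 2.33 in the mutant (adjusted p = 4.44e-12), and its WT means were 41.8 CPM at 45 DAS and 169 CPM at 25 DAS. At 45 DAS 1 of the 14 was higher and 5 lower in the mutant, among the lower ones HPD (-0.95, adjusted p = 0.00119), THA1 (-1.22, adjusted p = 0.00381) and ProDH1 (-0.73, adjusted p = 0.00397). By their locus numbers HPD (AT1G06570) and THA1 (AT1G08630) lie on chromosome 1 between MCCA and SNRK2.4. Whether a stretch of parental alleles around SNRK2.4 reaches them was not tested. At 25 DAS ARGAH2 was higher (0.93, adjusted p = 0.00138) and ProDH1 (-0.86, adjusted p = 0.00386) and HGO (-0.76, adjusted p = 0.0388) were lower. The HGO call was lost in 9 of 19 alternatives, among them DESeq2, thinned counts (-0.34, adjusted p = 0.714) and 7 fits without 1 library (WT replicates 2, 3 and 5 and mutant replicates 1 to 4, adjusted p up to 0.0979). The ProDH1 call was lost on thinned counts (adjusted p = 0.146).

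Among themselves the 10 genes followed no common course. The root mean square distance of each gene's centred log2 CPM from the mean profile of the 10 over 20 libraries was 0.24 for IVD, 0.45 for D2HGDH and 0.49 for ETFQO, and 2.77 for BCAT2. The 5 genes outside the lists that lay nearest to that mean profile were PAHX, VAMP727, TRX2, AT1G11480 and UBC36, at distances of 0.16 to 0.17 on the same scale over 20 libraries. These are moderate risers, with log2 fold changes with age of 0.70 to 0.88 in the mutant and 0.71 to 1.02 in WT. At 45 DAS the order of mean levels in the mutant was BCAT2 (183 CPM), E1A1 (148), IVD (34.2), LKR/SDH (27.5), ETFQO (14.0), BCE2 (12.5), D2HGDH (12.2), MCCB (10.7), MCCA (8.14) and DIN4 (7.53), and in WT LKR/SDH, at 160.4 CPM with an SD of 153, lay between BCAT2 and IVD with E1A1 within its spread. At 25 DAS BCAT2 had the lowest level of the 10 in both genotypes, 1.01 ± 1.76 CPM in the mutant and 1.69 ± 1.67 CPM in WT, and MCCA had the highest in WT, at 40.7 CPM, followed by DIN4 at 30.1 CPM. In the mutant order BCAT2 and E1A1, E1A1 and IVD, LKR/SDH and ETFQO, and MCCB and MCCA differed by more than the larger SD of the pair, and the other neighbours did not.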

How the data were processed

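The authors deposited 1 table of gene counts per library for 20 libraries of 3′ RNA-seq. Reads were aligned with STAR 2.7.8a to TAIR10, per the submitters' processing notes. The counting tool, its annotation, its use of strand and whether UMIs, which the labels' protocols place in read 1, were collapsed are not given in the sources used here. Without that, counts may include PCR copies, and intervals and floors cover counting error only. Genes on opposite strands with overlapping ends cannot be separated, nor can BCAT5 and LINC4, which overlap on the same strand.

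Counts were fitted with edgeR 4.0.16 in R 4.3.3 as 1 model of all 20 libraries with a mean per group: filterByExpr by group (14503 loci), TMM factors, robust quasi-likelihood fits and F-tests, Benjamini-Hochberg adjustment over all tested loci and a threshold of 0.05. SE is the size of the log2 fold change over the square root of F. CPM use the TMM-scaled totals, and log2 CPM a prior count of 2. Shares and the MCCA to MCCB ratio (0.5 added to each count) were compared by exact two-sided permutation over 252 arrangements, adjusted over 16 tests. Alternatives covered scaling (RLE, upper quartile and, chosen after the data were seen, library totals alone), DESeq2 1.42.0, limma 3.58.1 voom, no filter, the compared groups alone, thinned counts, a replicate block and leaving out each library. The model was tested on simulated data.

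The 10 genes and the other lists were chosen with earlier results of these data known. Named genes were the 10, the 2 kinases, every gene in a share, up to 3 genes per list and comparison with the smallest p past the threshold, and the 5 nearest profiles. Further values were named after they were seen for ETFA, ALDH6B2, FMO1 and ProDH2 in a second comparison, for ALD1, and for genes that overlap a named gene. Coordinates are those of TAIR10.1, whose annotation holds 37051 of the 37336 loci. No 2 libraries agreed within sampling noise (chi-square per degree of freedom 1.36 to 18.6 between libraries of a group). WT replicate 5 at 45 DAS had 7.82 to 18.6 against the other old WT libraries, which had 2.11 to 8.28 among themselves. Same-numbered libraries had correlations of -0.23 to 0.36, and those between genotypes at 45 DAS all lay above 0, from 0.018 to 0.36. Differently numbered libraries were not compared, so whether the numbers pair the libraries was not tested.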

Additional observations from a re-analysis of the deposited data

Results flagged for a closer look

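IVD in the mutant at 25 DAS had 1 library apart from the rest, replicate 4 at 19.7 CPM, with the other 4 between 15.8 and 16.6 CPM. The share of BCAT2 in the aminotransferase counts at 25 DAS in the mutant was 2.02% in the same replicate 4, with the others between 0 and 0.405%, which rests on 6 counts. These were 2 of 56 groups of 5 examined, and chance flags about 1 in 20 such groups.

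The change with age differed between genotypes for 3 genes of the other lists by edgeR's interaction test. AIP1 had an interaction of 1.17 on the log2 scale (SE 0.25, adjusted p = 0.0134), with means of 47.2 CPM at 45 DAS and 66.3 CPM at 25 DAS in the mutant, and 39.3 and 127 CPM in WT. The bZIP factor gene bZIP11 had -1.17 (SE 0.27, adjusted p = 0.0184), with 45.9 and 10.3 CPM in the mutant and 60.3 and 5.90 CPM in WT. The related bZIP53 had -0.87 (SE 0.23, adjusted p = 0.0322), with 97.4 and 70.5 CPM in the mutant and 127 and 49.6 CPM in WT. On thinned counts none of these 3 interactions passed (adjusted p 0.0929 for AIP1, 0.276 for bZIP11 and 0.113 for bZIP53). Without mutant replicate 2 at 45 DAS bZIP11 had adjusted p = 0.0534, and bZIP53 lost its call in 13 of 28 alternatives, 12 of them fits without 1 library (adjusted p up to 0.0814).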

How the results depend on the processing

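BCAT2, E1A1, IVD, LKR/SDH, DIN4 and MCCA kept their direction and call with age in both genotypes under every alternative run, and LKR/SDH at 45 DAS kept its direction in all 19 and its call in all but the fit of the compared groups alone. At 25 DAS the calls between genotypes, 2 of the 10 genes, became 1 with DESeq2, 1 without the filter, 4 in the compared groups alone (with DIN4 and BCE2), 4 with voom (the same 4) and 0 on thinned counts, and 0 to 2 without 1 library. All genes called there, 459, became 1121 in the compared groups alone, 986 with voom, 200 on thinned counts and 213 to 523 without 1 library. At 45 DAS the 1 call became 0 in the compared groups alone, and 1440 calls over all genes became 393 there, 868 on thinned counts and 793 to 2402 without 1 library. For the interaction DESeq2 called 1 of the 10 in place of 0, and 465 calls over all genes became 176 on thinned counts and 262 to 1195 without 1 library.

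Library totals without TMM moved the median of all genes with age to 0.75 in the mutant and 0.72 in WT, because the scaling factors differ between ages, and turned the log2 fold change with age positive for BCE2 (0.26), MCCB (0.28), BCAT1 (0.14) and BCAT5 (0.51) in the mutant and for ETFQO (0.32) and BCAT5 (0.14) in WT. Other reversals were of differences that no setting called, and the cause was not tested: between genotypes at 45 DAS BCAT2 (0.0012) and E1A1 (0.019) with upper-quartile scaling, and DIN4 (0.090), E1A1 (0.040), MCCA (0.24) and the MCCA to MCCB ratio (0.021, against -0.52 as reported on all counts) on thinned counts; at 25 DAS BCAT1 (0.029) on thinned counts and D2HGDH (-0.00068) in the compared groups alone. Thinned counts gave the DIN4 share a change with age of -27.7 percentage points in the mutant, no longer past the threshold, and the E1A1 share a genotype difference of -18.1 at 25 DAS, now past it.

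Leaving out 1 library at a time gave, between genotypes at 25 DAS, -2.41 to 0.17 for BCAT2, -0.20 to 0.019 for E1A1, -0.14 to 0.20 for D2HGDH and -1.11 to -0.71 for the MCCA to MCCB ratio. At 45 DAS it gave -0.065 to 0.023 for BCAT2, -0.21 to 0.066 for DIN4, -0.087 to 0.072 for E1A1, -0.22 to 0.035 for IVD, -0.26 to 0.11 for MCCA and -0.29 to 0.063 for E1A2, and for shares -0.637 to 5.74 (DIN4), -0.401 to 1.40 (E1A1) and -5.27 to -2.1 (BCAT2) percentage points, the last past the threshold without WT replicate 1. With age in WT BCAT1 had -0.044 to 0.42 and the E1A1 share 4.52 to 7.79, past the threshold without WT replicate 4 at 25 DAS. The interaction was -0.21 to 2.37 for BCAT2 and -0.050 to 0.21 for E1A1.

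With a replicate block 3 of the 10 genes were called between genotypes at 25 DAS (DIN4 besides MCCA and ETFQO; 598 over all genes), and the calls of the 10 were 1 at 45 DAS, 6 with age in the mutant, 8 in WT and 0 for the interaction. Same-numbered libraries correlated between -0.23 and 0.36. The interaction was not run on the compared groups alone, since it uses all 4. Depth limits genes such as BCAT2 at 25 DAS, where 3 counts are 1.28 to 3.97 CPM.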

Other observations

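KIN10 and KIN11, catalytic subunits of the SnRK1 starvation kinase, and 9 bZIP genes of groups C and S1, some of which are known to act on amino acid breakdown genes in darkness, were read as a further list of 11. With age 7 rose and 4 fell in the mutant, and 7 rose and 3 fell in WT (edgeR). KIN10 averaged 86.5 ± 4.27 CPM in the mutant and 74.3 ± 11.1 CPM in WT at 45 DAS, against 28.3 ± 2.77 CPM in the mutant and 34.8 ± 7.44 CPM in WT at 25 DAS (SD, n = 5 each). bZIP11 rose by 2.15 in the mutant (adjusted p = 3.96e-11) and 3.32 in WT (adjusted p = 3.54e-14), and bZIP10 by 1.50 in WT (adjusted p = 8.11e-09). In the mutant bZIP10 was also higher in old leaves, with means of 90.2 CPM at 45 DAS and 28.1 CPM at 25 DAS. bZIP63 fell by 2.69 in the mutant (adjusted p = 1.7e-13) and by 2.75 in WT (adjusted p = 8.97e-14). Between genotypes none of the 11 passed at either age, beside 3.16% of all tested genes at 25 DAS and 9.93% at 45 DAS.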
